A study of Mus musculus with 6 samples.

Results

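The MAF family of transcription factors was followed in MIN6 cells, a mouse insulinoma line that serves as a model of pancreatic beta cells. The 5 members were chosen by gene symbol, with earlier results of these data already known. They were the large MAF genes Mafa and Maf and the small MAF genes Maff, Mafg and Mafk, out of 23284 gene symbols in the count tables. In 3 libraries the cells had been given an antisense oligonucleotide (ASO) against Paupar, a long noncoding RNA transcribed beside Pax6, and in the other 3 a control ASO. Genotype, culture and sequencing protocol are the same for both groups in the labels, which give no ASO dose or duration. MIN6 is a tumour line, so neither group stands for primary islets. The level of Paupar itself was not analysed here, so these libraries carry no direct check of the knockdown (KD).

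MAF proteins bind DNA as dimers through a basic region and a leucine zipper. The large members also carry an activation domain: MAFA binds the insulin gene promoters and marks mature beta cells, whereas c-MAF, the product of Maf, is known from glucagon-producing alpha cells. The small members MAFF, MAFG and MAFK have no activation domain. Small MAF homodimers can repress, and their heterodimers with NRF1, NRF2 or BACH proteins act on antioxidant response elements, where NRF2 switches on genes of glutathione and iron handling and BACH1 holds them down.

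The family shares its DNA-binding stretch. The coding bases of the basic region are shown because they are what makes these genes a family; they were read from the NCBIM37 (mm9) assembly, 5′ to 3′ along the coding strand, and capitals mark the 41 of 63 bases that are the same in the 4 genes shown. They code for residues 287 to 307 of c-MAF and 53 to 73 of each small MAF.
Maf (chr8:118229843-118229905, minus strand): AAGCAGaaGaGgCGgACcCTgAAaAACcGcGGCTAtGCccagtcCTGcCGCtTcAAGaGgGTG
Maff (chr15:79187971-79188033, plus strand): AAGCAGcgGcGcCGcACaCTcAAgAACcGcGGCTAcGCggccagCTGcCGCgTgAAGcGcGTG
Mafg (chr11:120490868-120490930, minus strand): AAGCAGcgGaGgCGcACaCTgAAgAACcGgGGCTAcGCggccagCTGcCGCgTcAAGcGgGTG
Mafk (chr5:140276159-140276221, plus strand): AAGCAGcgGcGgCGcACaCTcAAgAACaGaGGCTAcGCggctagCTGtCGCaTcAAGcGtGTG
Within this stretch Maff and Mafg were identical at 90.5% of the bases, and Mafk at 87.3% with either. Between Maf and a small member identity was 68.3% to 76.2%. Over all annotated exons the longest run of bases shared by any 2 members was 23, found between Maff and Mafg and between Mafg and Mafk. The annotated proteins were 359 residues long for MAFA and 380 for c-MAF, against 156 for MAFF, 162 for MAFG and 156 for MAFK.

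In the mm9 annotation Mafa is at 75577273 to 75578352 of chromosome 15, and Maff is on the same chromosome at 79177971 to 79189502. Mafg is at 120486431 to 120494914 of chromosome 11, Mafk at 140267467 to 140278607 of chromosome 5 and Maf at 118206842 to 118231694 of chromosome 8. A few exon bases are shared with other genes: 4.3% of the Mafk exon bases with Tmem184a on the opposite strand, 2.2% of those of Mafg with Sirt7 and 8.8% with an annotated Mafg pseudogene model on the same strand. No exon of Mafa or Maff overlapped another gene. How reads in shared bases were assigned is not given in the sources used here.

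Library totals were 16973622 to 28693863 counts. Replicates of Paupar KD differed more than replicates of control KD, with a biological coefficient of variation of 18.75% and 4.95%. Paupar KD replicate 1 stood apart, with Pearson correlations of log2 levels across genes of 0.971 to 0.982 with the other 5 libraries, against at least 0.995 between controls. Beta cell markers were present: 10 of 10 had enough counts to be tested, and their summed level was 46233 to 67024 CPM (counts scaled to a common library total) in Paupar KD and 41456 to 45584 CPM in control KD. The lowest of them was Ucn3, a marker of mature beta cells, at 1.29 to 3.01 CPM in Paupar KD and 2.55 to 3.36 CPM in control KD. Alpha cell markers summed to 44.2 to 127 CPM in Paupar KD and 70.05 to 79.9 CPM in control KD, nearly all of it Gcg, with Pou3f4 at 0 in every library. Somatostatin and pancreatic polypeptide cell markers summed to at most 2.48 CPM, exocrine and duct markers to at most 1.70 CPM, and mesenchymal, endothelial and immune markers to at most 4.82 CPM.

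MIN6 cells contained transcripts of 4 of the 5 members, and none passed the test for a difference between Paupar KD and control KD. Mafa was by far the most abundant, and the small members were low. All 4 had a higher mean in Paupar KD: Mafa by 1.82-fold, almost wholly through 1 library, and Maff, Mafk and Mafg by 1.33-, 1.17- and 1.05-fold with all 3 Paupar KD libraries above all 3 controls. Of 4 tested members 0 passed edgeR's quasi-likelihood test at an adjusted p under 0.05, where 0.0383% of 13039 tested genes were called higher and 0.00767% lower. At an unadjusted edgeR p under 0.05 there were 2 higher members, Maff and Mafk, against 9.63% of all genes. DESeq2 called 1 member, Maff, in a fit that called 2.15% of genes higher. Groups did not overlap for 3 members, all higher, against 13.7% of all genes that were higher with no overlap.

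**Figure D1:**
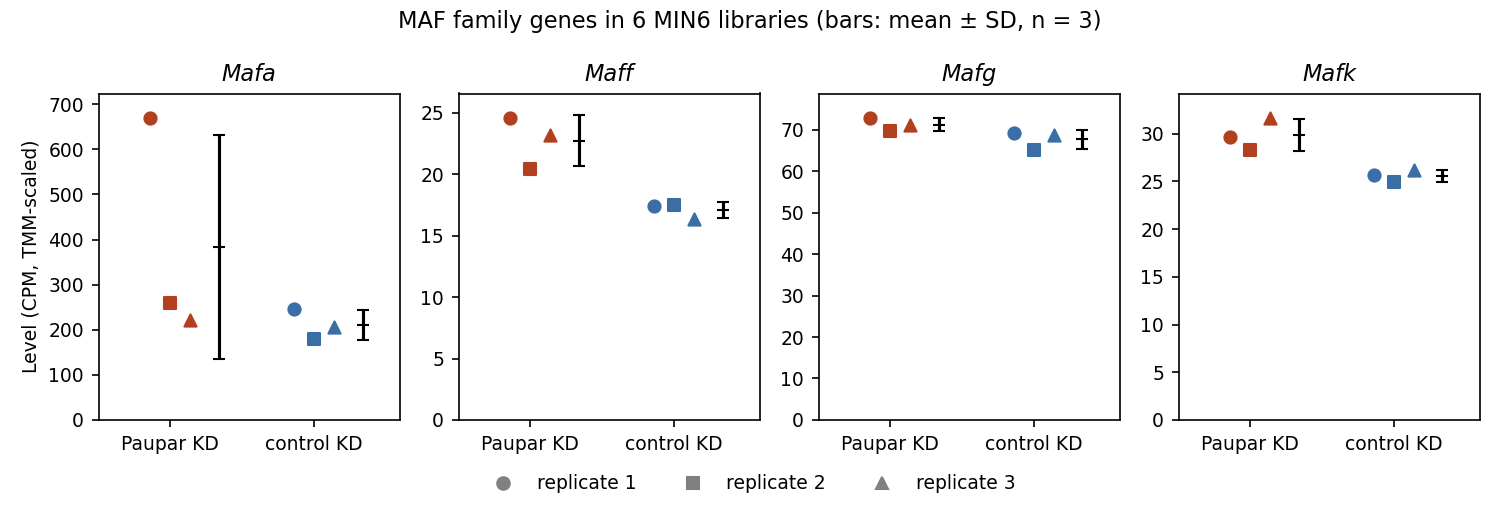
Levels of the 4 tested MAF genes in CPM (vertical axes, linear from 0), with a marker per library and bars for mean ± SD (n = 3 per group). Mafa is high in Paupar KD replicate 1 only, at 670.1 CPM, while for Maff, Mafg and Mafk each Paupar KD library lies above each control library.

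Large MAF genes came first in abundance through Mafa alone. Mafa had 670.1, 260 and 222 CPM in Paupar KD replicates 1 to 3, against 246, 180 and 207 CPM in control KD replicates 1 to 3. Paupar KD replicate 1 was far above every other library, replicate 2 slightly above the highest control, and replicate 3 within the range of the controls, so the groups overlapped. The means were 384 ± 249 CPM in Paupar KD and 211 ± 33.3 CPM in control KD (SD, n = 3 each), a log2 fold change of 0.86 ± 0.38 SE (edgeR adjusted p = 0.287). The 95% interval of the fold change was 0.988 to 3.35. Against the control mean, Mafa stood at 3.18-fold in Paupar KD replicate 1, 1.23-fold in replicate 2 and 1.05-fold in replicate 3. Leaving out Paupar KD replicate 1 brought the log2 fold change to 0.19 (edgeR adjusted p = 0.465). Leaving out Paupar KD replicate 3 brought it to 1.14 (edgeR adjusted p = 0.0648), and over the 15 alternatives the adjusted p was 0.0648 to 0.624. In whole-culture RNA, more cells with a transcript and more transcript per cell cannot be told apart.

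The spread of Mafa set it apart from the small members. Its SD over the Paupar KD libraries was 0.86 on the log2 scale, larger than that of 97.5% of tested genes, and its SD over the controls was 0.23, larger than that of 89.7%. Mafg was among the steadiest genes of the Paupar KD libraries, with an SD of 0.03 that exceeded that of only 2.33% of genes. Over the controls the SD of Mafg was 0.05, larger than that of 27.0% of genes. The genes compared were not matched for level. Mafk and Maff had SDs of 0.08 and 0.14 in Paupar KD, both under the median of 0.21 over all tested genes. The part of depth or library quality in the Mafa value of Paupar KD replicate 1, which was also the shallowest library, was not tested. Gcg, the alpha cell hormone gene, was highest in that library too, with 124, 64.0 and 40.9 CPM in Paupar KD replicates 1 to 3 and 66.6 to 76.2 CPM in control KD; its part in the Mafa value was not tested.

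Maf and Nrl, large MAF genes beside Mafa, were at or near 0. Maf had 0 counts in all 6 libraries, out of 135492209 counts in all. A count of 0 allows up to 3 counts, or at most 0.177 CPM in any single library and 0.0221 CPM over the 6 together, which covers counting error only; the part of the authors' annotation and read assignment in this 0 was not tested. Nrl, known from photoreceptors and no member by the rule, had 2, 0 and 2 counts in Paupar KD and 1, 3 and 2 counts in control KD. An entry of 0 in all 6 libraries was common, with 5886 of 23284 symbols. In the annotation 5.3% of the Maf exon bases overlap Gm15655 on the opposite strand.

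The 3 small MAF genes had higher means in Paupar KD, by small amounts that did not pass the test. Maff, the member known for rapid induction by stress, had 24.6, 20.4 and 23.2 CPM in Paupar KD and 17.4, 17.5 and 16.4 CPM in control KD. Each Paupar KD library lay above each control, and the means were 22.7 ± 2.11 and 17.1 ± 0.61 CPM (SD, n = 3 each). The log2 fold change was 0.41 ± 0.11 SE with a 95% interval for the fold of 1.12 to 1.58 (edgeR adjusted p = 0.157). It was the one member with a call by another tool, as DESeq2 gave an adjusted p of 0.0478 for it, in a fit that called 2.15% of genes higher. Over its 15 alternatives the adjusted p was 0.0478 to 0.562. Without Paupar KD replicate 1 its log2 fold change was 0.35 (edgeR adjusted p = 0.116).

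Mafk, first described as the small subunit of the erythroid factor NF-E2, had 29.7, 28.3 and 31.7 CPM in Paupar KD, against 25.6, 24.96 and 26.2 CPM in control KD. The groups lay apart, at means of 29.9 ± 1.68 and 25.6 ± 0.62 CPM (SD, n = 3 each; log2 fold change 0.22 ± 0.09 SE, edgeR adjusted p = 0.264). The 95% interval of the fold change was 1.01 to 1.35. Mafg, the most abundant small MAF gene, had 72.9, 69.6 and 71.2 CPM in Paupar KD and 69.2, 65.1 and 68.7 CPM in control KD. Here the groups only just failed to touch, and the difference was small: 71.2 ± 1.62 against 67.7 ± 2.23 CPM (SD, n = 3 each; log2 fold change 0.07 ± 0.08 SE, edgeR adjusted p = 0.644). Its 95% interval for the fold, 0.928 to 1.19, bounds the size of any difference more tightly than for the other members.

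**Figure D2:**
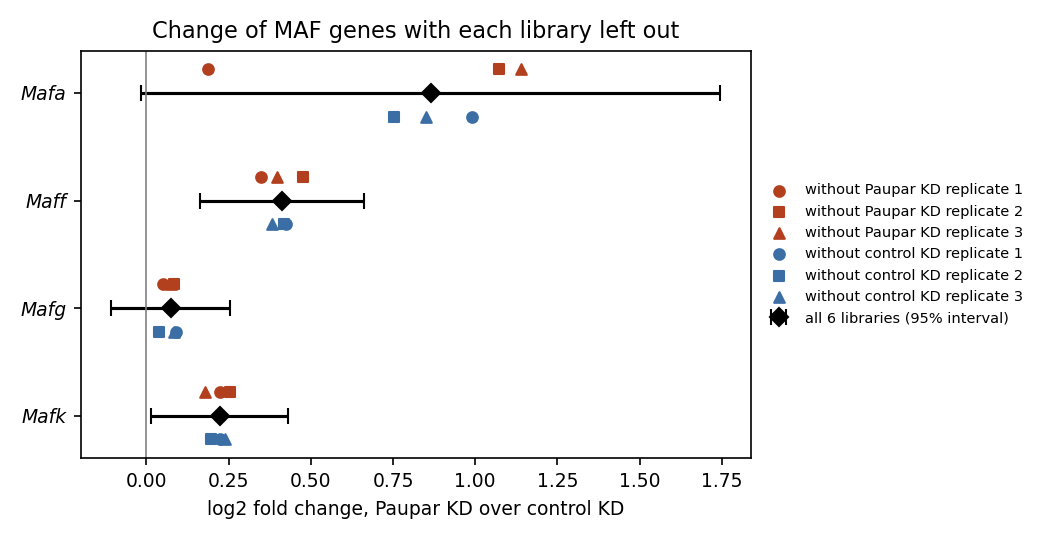
Log2 fold change of each MAF gene, Paupar KD over control KD, from all 6 libraries (diamond with 95% interval) and with each library left out in turn (coloured markers). Every value is above 0. The Mafa value drops to 0.19 without Paupar KD replicate 1, while the values of Maff stay between 0.35 and 0.48. The groups of Maff, Mafg and Mafk do not overlap, so leaving out a library could hardly bring their values below 0.

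Levels can be compared between genes only per length of transcript. Per kilobase of annotated exon, Mafg was at 12.7 ± 0.29 CPM in Paupar KD and 12.1 ± 0.40 CPM in control KD, Maff at 10.7 ± 0.99 and 8.06 ± 0.29 CPM, and Mafk at 7.66 ± 0.43 and 6.56 ± 0.16 CPM (SD, n = 3 each). The order Mafg, Maff, Mafk held in each of the 6 libraries, and neighbours in it did not overlap within a group. For Mafa the mm9 annotation holds the coding part alone, 1080 bases, which gives 355 ± 230.2 and 195 ± 30.8 CPM per kilobase in Paupar KD and control KD. With the RefSeq gene length of 2821 bases from the GRCm38.p6 assembly instead, it was at 136 and 74.7 CPM per kilobase, still above each small member. On that scale Mafa was at 7.38, 3.14 and 2.48 times the summed small MAF level in Paupar KD replicates 1 to 3, and at 3.21, 2.43 and 2.74 times in the controls. The summed small MAF level itself was 29.3 to 32.2 CPM per kilobase in Paupar KD and 26.2 to 27.1 CPM per kilobase in control KD. As each small member lay apart between the groups, these summed levels could not overlap and add no further result. The ratio of Mafa to them did overlap.

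RefSeq promoter windows were found for 3 of the 5 members: 1 each for Mafg and Mafk and 3 for Maff. The 250 bases before the annotated start are shown for 1 window of each gene (GRCm38.p6, 5′ to 3′ along the gene's strand). These 3 genes were the only members with a window. Capitals mark matches on either strand to the core of the antioxidant response element (TGACNNNGC), the AP-1 site (TGANTCA) or the cAMP response element (TGACGTCA).
Maff (chr15:79347270-79347519, plus strand): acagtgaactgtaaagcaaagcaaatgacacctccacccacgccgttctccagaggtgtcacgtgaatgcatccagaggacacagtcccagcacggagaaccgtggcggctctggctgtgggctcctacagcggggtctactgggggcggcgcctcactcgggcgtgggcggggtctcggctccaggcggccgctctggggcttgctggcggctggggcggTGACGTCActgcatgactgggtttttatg
Mafg (chr11:120633548-120633797, minus strand): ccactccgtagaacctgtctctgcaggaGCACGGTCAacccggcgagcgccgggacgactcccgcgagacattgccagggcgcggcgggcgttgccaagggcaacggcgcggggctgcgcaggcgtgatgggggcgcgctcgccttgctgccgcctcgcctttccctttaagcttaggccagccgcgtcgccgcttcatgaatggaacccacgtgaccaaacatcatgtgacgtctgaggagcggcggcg
Mafk (chr5:139791286-139791535, plus strand): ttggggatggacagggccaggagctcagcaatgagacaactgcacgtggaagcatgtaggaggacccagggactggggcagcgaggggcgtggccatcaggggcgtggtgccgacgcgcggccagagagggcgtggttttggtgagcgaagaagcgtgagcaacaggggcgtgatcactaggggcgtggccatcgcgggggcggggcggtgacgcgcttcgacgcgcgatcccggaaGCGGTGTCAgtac
The antioxidant core matched once in the Mafg window, beginning 222 bases before the start, and once in the Mafk window, 13 bases before it. It was present in 10.2% of 32851 promoter windows of the same length. The Maff window shown, the second of its 3, holds the cAMP response element 29 bases before the start, a match found in 1.55% of windows. Another Maff window had an antioxidant core 112 bases before its start, and the remaining window had no match to these motifs. No matches overlapped each other. The AP-1 site, found in 6.75% of windows, was in none of the 5. A match describes the letters only; binding was not measured.

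No gene listed with the partners of the small MAF proteins passed the test. The list also holds Cul3 and Keap1, which act on NRF2 rather than pairing with small MAF proteins. Of 8 listed genes 6 were tested, 2 with positive and 4 with negative log2 fold changes, where 51.0% of all tested genes were positive. Their median log2 fold change was -0.07, against 0.01 over all tested genes. Nfe2l2, which encodes NRF2, had 47.4, 53.8 and 49.4 CPM in Paupar KD and 67.9, 64.3 and 62.3 CPM in control KD. All 3 Paupar KD libraries were below the controls, opposite in sign to Maff and Mafk (log2 fold change -0.37 ± 0.09 SE, edgeR adjusted p = 0.144). Cul3, part of the ubiquitin ligase that turns over NRF2, was at 249 ± 34.02 CPM in Paupar KD and 306 ± 6.55 CPM in control KD (edgeR adjusted p = 0.245). Keap1, the sensor that brings NRF2 to that ligase, was at 111 ± 5.32 and 98.9 ± 4.74 CPM (edgeR adjusted p = 0.339). The Paupar KD libraries lay below the controls for Cul3 and above them for Keap1. Bach2, a repressor partner, was at 8.18 ± 2.69 and 8.99 ± 0.54 CPM (edgeR adjusted p = 0.789). Nfe2 and Nfe2l3 had too few counts to be tested.

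Genes with antioxidant response elements split in direction. Of 21 known NRF2 targets 11 had positive and 10 negative log2 fold changes; the median was 0.02 and 0 passed. Gsr, the glutathione reductase gene, had 121, 98.5 and 106 CPM in Paupar KD and 66.5, 63.6 and 64.1 CPM in control KD. Its groups were far apart, and it missed the threshold narrowly (log2 fold change 0.74 ± 0.10 SE, edgeR adjusted p = 0.0640). Fth1, the ferritin heavy chain gene, was similar at 539 ± 68.7 CPM in Paupar KD and 317 ± 20.1 CPM in control KD (log2 fold change 0.77 ± 0.11 SE, edgeR adjusted p = 0.0646). Fth1 has many processed pseudogenes, so its level is uncertain. Abcc1, a glutathione conjugate exporter, was at 72.2 ± 3.96 and 87.2 ± 4.18 CPM (edgeR adjusted p = 0.197), and Taldo1, of the pentose phosphate pathway, at 104 ± 24.3 and 81.1 ± 5.53 CPM (edgeR adjusted p = 0.286).

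AP-1 proteins, which can dimerise with MAF proteins, gave 1 positive and 5 negative log2 fold changes among 6 tested genes of 7, with a median of -0.17 and 0 calls. Fosl2 was at 58.5 ± 12.4 CPM in Paupar KD and 68.5 ± 6.39 CPM in control KD, Jun at 82.0 ± 28.6 and 97.7 ± 16.6 CPM, Fosb at 3.67 ± 1.36 and 4.18 ± 0.92 CPM and Fos at 15.7 ± 7.28 and 17.7 ± 2.42 CPM (edgeR adjusted p = 0.473 to 0.789). For these 4 genes the groups overlapped. Library by library, the AP-1 list had a median log2 difference from its control mean of -0.53, -0.18 and 0.26 in Paupar KD replicates 1 to 3, a different order from that of Maff at 0.53, 0.26 and 0.44.

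Known MAFA targets held no call and differed in sign among themselves. Of 16 targets 16 were tested, 11 with positive and 5 with negative log2 fold changes. Their median was 0.10, with 0 calls. Over all tested genes the share with a positive value was 51.0%. In Paupar KD replicate 1, where Mafa was high, the median log2 difference of the targets from their control mean was 0.23, against -0.0018 and -0.03 in replicates 2 and 3. For 10 of the 16 that library was the highest of the 6, as it was for 12 of 21 NRF2 targets, 5 of 9 tested enhancer partners of MAFA and 33.2% of all tested genes. The median difference in that library was 0.18 for the NRF2 targets and 0.15 for the enhancer partners. Other lists went the other way there, with medians of -0.55 for MAFA protein regulators, -0.33 for small MAF partners and -0.53 for AP-1 partners. That library was the highest for 1 of 8, 1 of 6 and 0 of 6 of their tested genes. Both insulin genes were among the 10 targets. Ins1 had 14318, 6461 and 5239 CPM in the 3 Paupar KD libraries, against 5990 to 6732 CPM in control KD.

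The 4 targets with the smallest p were 2 lower and 2 higher in mean, and none passed the test. Slc30a8, the granule zinc transporter gene, was at 387 ± 35.9 CPM in Paupar KD and 472 ± 13.05 CPM in control KD, with no overlap (edgeR adjusted p = 0.211). Ins2 was at 21916 ± 5659 and 15995 ± 1422 CPM (edgeR adjusted p = 0.253), also with no overlap; reads of Ins1 and Ins2 may be divided between these similar genes. Pcsk1, a prohormone convertase gene, averaged 639 ± 112 CPM in Paupar KD and 506 ± 42.3 CPM in control KD (edgeR adjusted p = 0.267). Slc2a2, which encodes the glucose transporter GLUT2, averaged 263 ± 45.5 CPM in Paupar KD and 317 ± 6.06 CPM in control KD (edgeR adjusted p = 0.296). Its Paupar KD replicate 1, at 315 CPM, was level with the controls, and replicates 2 and 3 were below them at 237 and 236 CPM.

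**Figure D3:**
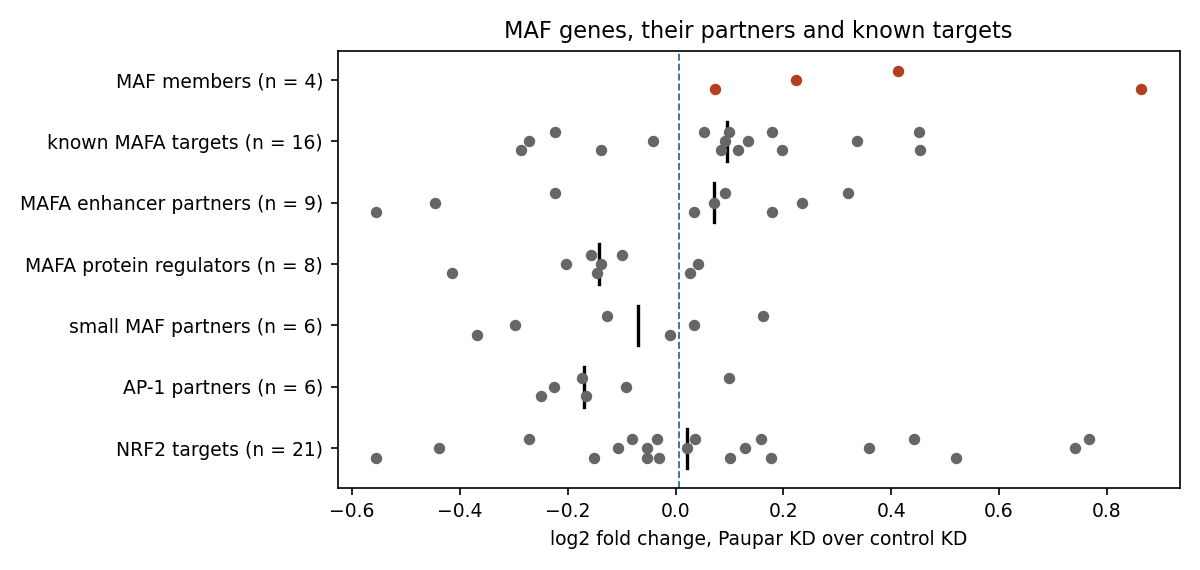
Log2 fold change, Paupar KD over control KD, of the 4 tested MAF genes and of the tested genes of 6 lists; each point is a gene, black bars are list medians and the dashed line is the median of all tested genes, 0.01. List medians run from -0.17 for AP-1 partners to 0.10 for known MAFA targets, and no gene shown passed the threshold.

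Among 10 transcription factors listed as enhancer partners of MAFA, 9 were tested and 0 passed. The log2 fold change was positive for 6 of them and negative for 3, around a median of 0.07. The list is not limited to factors that act with MAFA at the insulin enhancers. It also holds Foxo1, Foxa2 and Onecut1, for which such a role was not tested. The list shares Pdx1, Nkx6-1 and Neurod1 with the target list. Pax6, which lies beside Paupar, was at 398 ± 16.7 CPM in Paupar KD and 585 ± 36.4 CPM in control KD (log2 fold change -0.56 ± 0.09 SE, edgeR adjusted p = 0.0694). Foxo1, which acts on Mafa under oxidative stress, was at 53.5 ± 3.47 and 72.9 ± 2.996 CPM (edgeR adjusted p = 0.106). For both, the Paupar KD libraries lay below the controls, on the opposite side from the Mafa mean. Tcf3, an E-box factor gene, was at 91.9 ± 15.96 and 73.5 ± 2.48 CPM, and Isl1, an islet homeobox gene, at 78.3 ± 6.60 and 66.5 ± 4.58 CPM (edgeR adjusted p = 0.253 and 0.271). For Tcf3 and Isl1 the Paupar KD libraries lay above the controls, on the same side as the Mafa mean.

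Kinases and cofactors that modify or assist MAFA protein gave 2 positive and 6 negative log2 fold changes among 8 tested genes, with a median of -0.14 and 0 calls. Ncoa6, a coactivator of MAFA, had 80.4, 104 and 141 CPM in Paupar KD replicates 1 to 3 and 138 to 152 CPM in control KD (edgeR adjusted p = 0.286). It was lowest in the library in which Mafa was highest, but this was not particular to Ncoa6. The list as a whole had a median log2 difference from the control mean of -0.55, -0.06 and 0.09 in Paupar KD replicates 1 to 3. Mapk14, a stress kinase gene, was at 164 ± 3.86 CPM in Paupar KD and 181 ± 6.09 CPM in control KD, with no overlap (edgeR adjusted p = 0.354). Kdm6a, a histone demethylase gene, was at 54.6 ± 11.2 and 62.9 ± 4.75 CPM, and Kat2b, a histone acetyltransferase gene, at 55.4 ± 20.4 and 61.1 ± 1.78 CPM (edgeR adjusted p = 0.498 and 0.767).

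Genes most like each member in pattern were found as those with the smallest root mean square (RMS) difference between their log2 deviations from the control mean and those of the member, over 6 libraries and 10682 genes of at least 5 CPM. For Mafa these were Arrdc4 (RMS 0.16), an arrestin-domain gene, Crybb3 (0.18), a beta-crystallin gene, and Rgs16 (0.20), a regulator of G protein signalling. Arrdc4 had 51.6, 19.5 and 19.1 CPM in Paupar KD and 17.3 to 17.9 CPM in control KD, and Rgs16 had 14.2, 4.26 and 3.82 CPM in Paupar KD and 3.56 to 4.34 CPM in control KD. In all 3 genes, as in Mafa, Paupar KD replicate 1 was the high library, which follows from choosing them for likeness to Mafa. None of the 3 passed the test (edgeR adjusted p = 0.248 to 0.374).

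The small members had closer neighbours. For Maff they were Aldh2, a mitochondrial aldehyde dehydrogenase gene, Slc35b4, a nucleotide sugar transporter gene, and Ddah2, each at an RMS of 0.05. For Mafk they were Prkra, Ttc26 and Cndp2, at 0.02 to 0.03, and Qpctl and Whsc2 were near Mafg, also at 0.02 to 0.03. Genes with flat patterns lie near each other by construction.

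**Figure D4:**
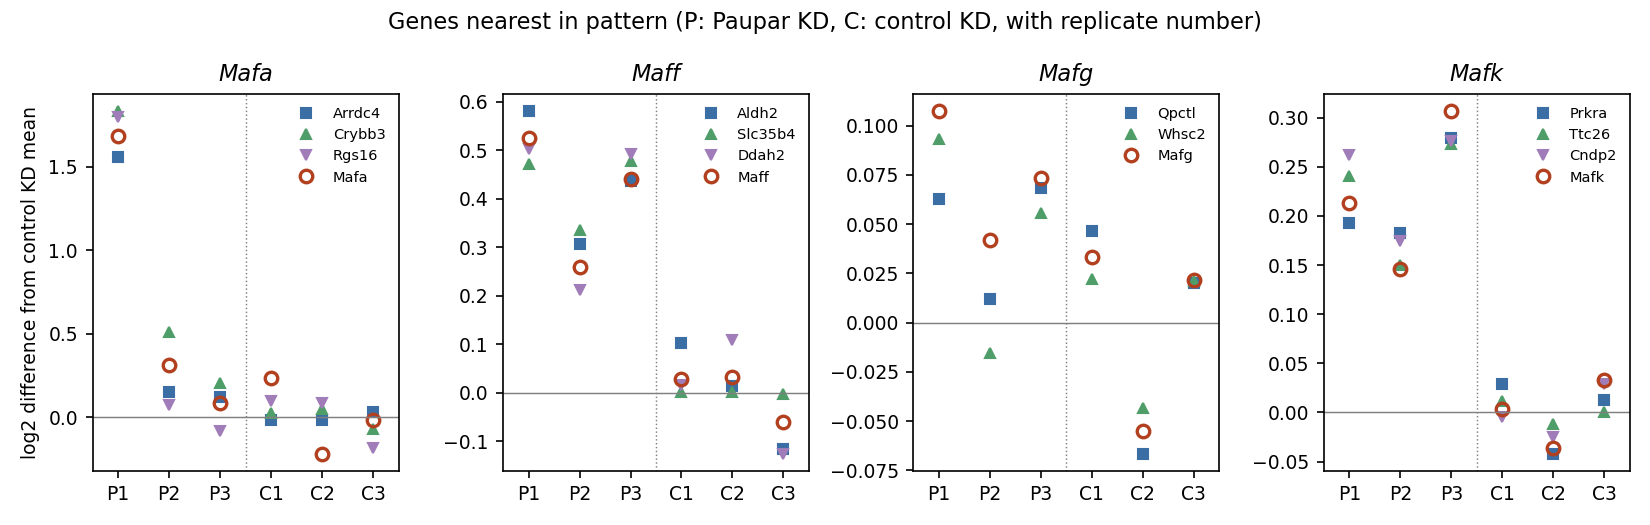
Log2 difference from the control KD mean in each library (P1 to P3, Paupar KD replicates; C1 to C3, control KD replicates) for each MAF gene (open circles) and genes nearest in pattern (3 for Mafa, Maff and Mafk, 2 for Mafg); vertical scales differ between panels. Mafa is at 1.68 in P1, and its neighbours are high there because they were chosen for likeness to it. Maff and Mafk are above the controls in all 3 Paupar KD libraries.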

How the data were processed

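The authors deposited 1 table of raw read counts per library, for 23284 gene symbols, without normalization. Build mm9, CASAVA 1.8.2, HISAT2, HTSeq and DESeq2 are named, per the submitters' processing notes; which annotation and strand setting were used was not stated there. Counts were fitted with edgeR 4.0.16 in R 4.3.3: filterByExpr (minimum count 10, smallest group 3) left 13039 genes, followed by TMM scaling and the robust quasi-likelihood test of Paupar KD against control KD (3 libraries each), with Benjamini-Hochberg adjustment over all tested genes at 0.05. CPM use TMM factors; log2 CPM for patterns and spreads use a prior count of 0.5. An SE is the log2 fold change divided by the root of F, and 95% intervals use the t distribution. The fit was checked on simulated counts with the same dispersion in both groups. That check does not cover the larger spread among the Paupar KD libraries. No libraries of a group agreed within sampling noise (chi-square per gene 3.46 to 80.8). Whether replicates came from separate cultures is not in the labels; p-values therefore reflect variation among these libraries, which may be technical.

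Members and lists were chosen with earlier results of these data known. Named genes are all members, list genes past the threshold, the 4 smallest p of each partner or target list and the 3 nearest patterns; Ins1 was added after its values were seen, as were the non-overlap alternatives. Positions, exons and coding bases are from GENCODE M1 (NCBIM37) and promoters from RefSeq (GRCm38.p6). Alternatives were other scalings, filters, DESeq2 1.42.0, limma-voom 3.58.1, no robust estimation, a replicate block, an adjusted p under 0.1 and leaving out each library. A few listed or neighbouring genes and 1 coding window are not reported here.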

Additional observations from a re-analysis of the deposited data

How the results depend on the processing

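Counts of called members stayed at 0 in both directions under 15 of the 16 alternatives; DESeq2 called 1 member higher, Maff. Of the 15 refits per member, none turned a direction: log2 fold changes ran from 0.19 to 1.14 for Mafa, 0.35 to 0.48 for Maff, 0.18 to 0.25 for Mafk and 0.04 to 0.10 for Mafg. The count of 3 higher members with no overlap stayed at 3 under 7 alternatives of scaling or left-out libraries. It was 4 without control KD replicate 1 or without Paupar KD replicate 3, where Mafa was the added member. Leaving out a library cannot make groups that lie apart overlap, beyond small shifts in scaling, so such a count could only stay or rise. For the same reason it could hardly turn the direction of Maff, Mafk or Mafg. The share of all genes without overlap was not computed for these smaller groups. Calls over all genes, 5 higher and 1 lower, varied more: upper-quartile factors gave 3 and 0, keeping all genes with a count 36 and 24, a mean CPM of 1 or more 2 and 0, DESeq2 275 and 233, and a threshold of 0.1 gave 55 and 38. The cause was not tested. With 1 library left out they ran from 0 to 611 higher and from 0 to 745 lower; omitting Paupar KD replicate 1 gave 123 and 128, omitting Paupar KD replicate 3 gave 611 and 745, and omitting any other library gave 0. With a replicate block 1 gene was called higher and 0 lower, and no member. The labels do not say whether same-numbered libraries were handled together. Their deviations correlated at 0.07, -0.02 and 0.0012. Replicates 2 and 3 of Paupar KD each correlated best with a control of another number, and replicate 1 with control KD replicate 1. With 3 libraries per group these values cannot settle whether libraries were paired. At 393 to 540 counts per library, Maff is the member whose level counting error touches most.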
